A study of Arabidopsis thaliana with 6 samples.

Results

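Flavonol synthesis and glycosylation in Arabidopsis thaliana were followed through 10 genes, chosen by locus identifier from the 33602 loci of the deposited gene counts. They comprise 6 synthesis genes (CHS, CHI, CHIL, F3H, F3'H and FLS1) and 4 genes for glycosyltransferases (UGT78D1, UGT78D2, UGT89C1 and UGT91A1). All 10 were found and tested. Every one of them was higher after a short exposure to light at night, with log2 changes from 2.00 for UGT78D2 to 7.02 for UGT91A1.

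Flavonols are phenolic compounds that plants build from phenylalanine through the phenylpropanoid pathway and from malonyl-CoA. Chalcone synthase makes the first flavonoid, an isomerase and a series of oxygenases turn it into kaempferol and quercetin, and glycosyltransferases then attach sugars to these flavonols. Flavonol glycosides collect in leaf epidermis, absorb ultraviolet light and are known for their dependence on light.

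Seedlings of both groups were wild type of the Columbia ecotype (Col), grown for 9 days in cycles of 12 h light and 12 h darkness. For the light group, white light was switched on at ZT18, in the middle of the night, for 2 h (ZT counts hours from dawn), and the dark group received none. Both were harvested at ZT20 and the RNA came from a pool of tissues. Each group has 3 libraries, here called A, B and C after the letters of their columns. The labels do not tell whether a group's libraries are of separate cultures, so each p-value rests on a spread between libraries that may be technical.

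The libraries held 8695843 to 12689543 gene counts, and ribosomal RNA took 0.799% to 4.77% of them. Expression correlated at r = 0.992 to 0.993 within groups and at 0.932 to 0.944 between groups, across genes in log CPM (counts scaled to a common library total). Markers of other cell types went both ways by edgeR, with log2 changes under 1 in size. Of 5 root markers COBL9, EXPA7 and SCR were higher, SHR was lower and WOX5 was not called, and their sum was 68.2 to 71.3 CPM in the dark and 82.7 to 84.2 CPM in the light. The epidermal markers ATML1 (-0.17 ± 0.07, adjusted p = 0.0577), PDF1 (-0.12 ± 0.06) and PDF2 (0.02 ± 0.07) were not called, at 511 to 564 CPM in the dark and 482 to 549 CPM in the light, but ATML1 was called lower in 5 of 13 alternatives and PDF1 in 2. Of 3 leaf markers AS1 was higher and FIL and YAB3 were lower (153 to 154 CPM in the dark, 156 to 159 CPM in the light). Of 4 stomatal markers FAMA was lower and 3 were not called (48.6 to 50.0 CPM and 36.9 to 49.7 CPM), and of 2 phloem markers SUC2 was lower and APL was not called (137 to 155 CPM and 121 to 128 CPM). Of 2 seed coat markers, BAN had a count of 0 in all 6 libraries. TT10 had 2, 3 and 2 counts in the dark and 3, 2 and 1 in the light, and neither was tested. The part of these markers in the results was not tested, and in such bulk RNA fewer cells of a type and less RNA per cell cannot be told apart.

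All 10 genes were called higher in light by edgeR's quasi-likelihood test at an adjusted p (Benjamini-Hochberg over 20151 genes) under 0.05, and 0 were lower. Of all genes tested, 28.9% were called higher, 27.4% lower and 56.3% in either direction. The median log2 change of the 10 was 3.26, against -0.0031 for all genes tested. Each of the 10 rose at least 2-fold, as did 6.07% of all genes tested, and 7 of them rose at least 8-fold, as did 123 genes in all. In the ranking of all rises the 10 genes lay between places 3 and 301. The 3 light values were above the 3 dark values for all 10, as for 31.8% of genes tested. Together the 10 genes took 230 ± 14.1 CPM in the dark and 2229 ± 216 CPM in the light (mean ± SD, n = 3).

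**Figure D1:**
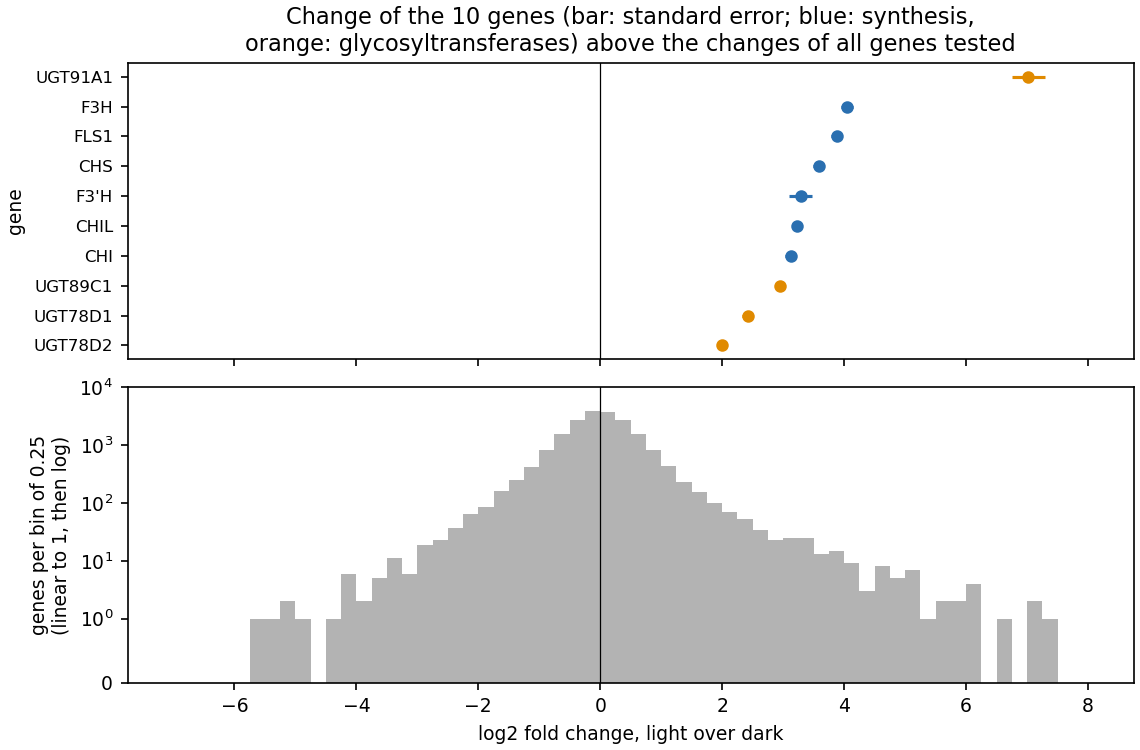
Log2 fold change of light over dark for each of the 10 genes (top, points with standard errors) and the number of genes per bin of log2 fold change for all 20151 genes tested (bottom, log axis above 1). The 10 genes span 2.00 to 7.02 and lie on the right flank of a distribution centred near 0.

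Light library C, the one with the fewest counts, gave the highest of the 3 light values for all 10 genes. It held the highest light value for 36.6% of all genes tested and for 42.3% of the genes called higher. Without it the log2 changes were 1.95 ± 0.07 for UGT78D2, 3.50 ± 0.09 for CHS and 6.88 ± 0.25 for UGT91A1, and all 10 genes were still called.

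CHS (AT5G13930, chromosome 5, 4488688 to 4490264, TAIR10) encodes chalcone synthase, the entry enzyme of the flavonoid pathway. Its level was 63.7, 66.2 and 78.9 CPM in dark libraries A, B and C and 821, 757 and 923 CPM in light libraries A, B and C. The lowest light library was thus far above the highest dark one. The log2 change was 3.58 ± 0.09 (SE), a 12.0-fold rise (edgeR adjusted p = 2.3e-13). CHS made up 30.2% of the summed CPM of the 10 genes in the dark and 37.4% in the light.

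CHI (AT3G55120, chromosome 3, 20430114 to 20431470) encodes chalcone isomerase, which closes the ring of the chalcone. It measured 14.2, 12.6 and 14.3 CPM in the dark and 117, 109 and 133 CPM in the light. CHIL (AT5G05270, chromosome 5, 1563320 to 1565007) encodes a relative of the isomerase without its catalytic activity that binds chalcone synthase and raises its output. Its values were 20.9, 23.0 and 25.4 CPM in the dark and 220, 201 and 231 CPM in the light. For both genes the groups lay well apart, with little spread inside each. CHI rose by 3.12 ± 0.09 on the log2 scale (adjusted p = 3.9e-13) and CHIL by 3.23 ± 0.08 (adjusted p = 1.4e-13), both by edgeR.

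F3H (AT3G51240, chromosome 3, 19025192 to 19026872) encodes flavanone hydroxylase, whose product dihydrokaempferol feeds both flavonols and anthocyanins. It stood at 12.4, 15.1 and 16.1 CPM in the dark and at 224, 226 and 268 CPM in the light. No dark library came near a light one, and the log2 change of 4.04 ± 0.10, or 16.5-fold, was the largest of the synthesis genes (edgeR adjusted p = 1.3e-13). The locus AT3G51238, annotated as a long non-coding RNA at 19025110 to 19026779, covers 94.5% of F3H. Its counts were 157, 179 and 209 in the dark and 2380, 2692 and 2238 in the light, which is 99.9% to 100% of the F3H counts in each library. Whether counting used strand is not given in the sources used here, so reads of F3H and of AT3G51238 cannot be told apart.

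F3'H (AT5G07990, chromosome 5, 2560394 to 2563109) encodes the cytochrome P450 that adds the hydroxyl group separating quercetin from kaempferol. It had the lowest RPKM of the synthesis genes, and measured 2.60, 2.61 and 2.47 CPM in the dark and 22.9, 20.9 and 32.4 CPM in the light. The dark libraries were nearly equal, while light C exceeded the other 2 light libraries, for a light coefficient of variation of 24.0%, the highest of the 10 genes. The log2 change was 3.29 ± 0.18 (edgeR adjusted p = 7.3e-10).

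FLS1 (AT5G08640, chromosome 5, 2803957 to 2805606) encodes the main flavonol synthase, the enzyme that commits dihydroflavonols to flavonols. Its level was 16.9, 16.4 and 21.6 CPM in the dark and 261, 260 and 287 CPM in the light. All light libraries were again above all dark ones, with a coefficient of variation of 5.67% among the light ones. The log2 change was 3.88 ± 0.09, or 14.7-fold (edgeR adjusted p = 1.1e-13), which gives the 6 synthesis genes a median of 3.43.

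**Figure D2:**
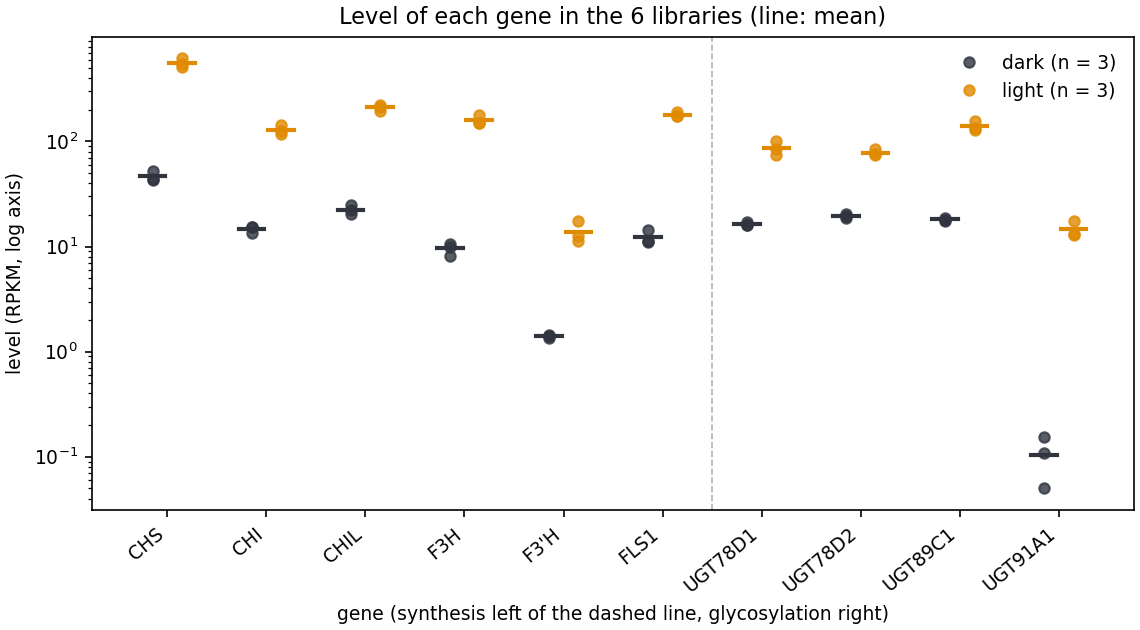
Level of each of the 10 genes in RPKM (log axis) in the 3 dark and 3 light libraries, with the mean of each group as a line. In every gene the light libraries lie above the dark ones, from CHS at the top with 46.7 and 559 RPKM to UGT91A1 with 0.104 and 14.6 RPKM.

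The glycosyltransferase genes rose as well, but unequally, with a median log2 change of 2.68. UGT78D1 (AT1G30530, chromosome 1, 10814659 to 10816583) encodes the enzyme that attaches rhamnose to the central ring of flavonols. It measured 29.0, 29.2 and 31.1 CPM in the dark and 156, 136 and 186 CPM in the light. UGT78D2 (AT5G17050, chromosome 5, 5607788 to 5609492) encodes the enzyme that attaches glucose at the same place and also acts on anthocyanidins. Its values were 30.8, 30.0 and 28.4 CPM in the dark and 116, 113 and 129 CPM in the light. In both genes every light library was above every dark one. UGT78D1 changed by 2.42 ± 0.10 (adjusted p = 1.9e-11) and UGT78D2 by 2.00 ± 0.07 (adjusted p = 4e-12) in edgeR's test, the 2 smallest rises of the 10.

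UGT89C1 (AT1G06000, chromosome 1, 1820308 to 1821894) encodes the enzyme that attaches rhamnose to the A ring, at the other end of the molecule. It stood at 29.9, 28.5 and 28.1 CPM in the dark and at 214, 202 and 250 CPM in the light. The groups were far apart and the log2 change was 2.94 ± 0.08, or 7.69-fold (edgeR adjusted p = 4.6e-13). The locus AT1G06002, annotated as a long non-coding RNA at 1820977 to 1821918, shares 57.8% of the length of UGT89C1. Its counts were 262, 227 and 252 in the dark and 1435, 1546 and 1358 in the light, or 63.1% to 69.2% of those of UGT89C1. Reads of these overlapping loci also cannot be told apart.

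UGT91A1 (AT2G22590, chromosome 2, 9592996 to 9594535) belongs to the same enzyme family and is known as a target of the MYB factors that activate flavonol genes. Its raw counts were 3, 2 and 1 in the dark and 213, 239 and 227 in the light. It was thus close to undetected in each dark library and clearly present in each light one. Summed over libraries and scaled for depth, 6 dark against 679 light counts give a ratio of 138, with an exact 95% interval of 62.9 to 376 that covers counting error only. The fitted log2 change was 7.02 ± 0.28 (edgeR adjusted p = 1.6e-11), the third largest rise of all genes tested. Its ± is worked back from the F statistic and, with 6 dark counts, understates the counting error that the interval shows. UGT91A1 passed the filter on low counts only through its light libraries, so its test and rank depend on its light level. PCR copies of one molecule were not separated, so the counts need not be independent molecules.

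Levels per length, in RPKM (CPM per kilobase of exonic length), ordered the 10 genes differently in the 2 groups. In darkness CHS led with 46.7 ± 5.47 RPKM, followed by CHIL with 22.4 ± 2.19, UGT78D2 with 19.5 ± 0.776, UGT89C1 with 18.2 ± 0.604 and UGT78D1 with 16.3 ± 0.646. Below them came CHI with 14.7 ± 0.973, FLS1 with 12.2 ± 1.92, F3H with 9.63 ± 1.29, F3'H with 1.39 ± 0.044 and UGT91A1 with 0.104 ± 0.0518 RPKM. Of neighbours in this order, UGT78D2 and UGT89C1 overlapped in range, as did CHI and FLS1, and the other pairs did not. In the dark, then, 3 glycosyltransferase genes stood above most genes of synthesis.

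In the light CHS led with 559 ± 55.9 RPKM and CHIL followed with 210.4 ± 14.4. FLS1 with 180.3 ± 10.2, F3H with 159 ± 16.5, UGT89C1 with 140.0 ± 15.9 and CHI with 129 ± 12.8 RPKM overlapped from each to the next. UGT78D1 with 87.2 ± 13.6 and UGT78D2 with 78.4 ± 5.75 RPKM overlapped with each other, as did UGT91A1 with 14.6 ± 2.68 and F3'H with 13.8 ± 3.32. In mean RPKM, FLS1 and F3H thus stood above all 4 glycosyltransferase genes in the light and below 3 of them in the dark. These places depend on the length used: with the whole gene length, introns included, 5 genes kept their place in the dark and 6 in the light.

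**Figure D3:**
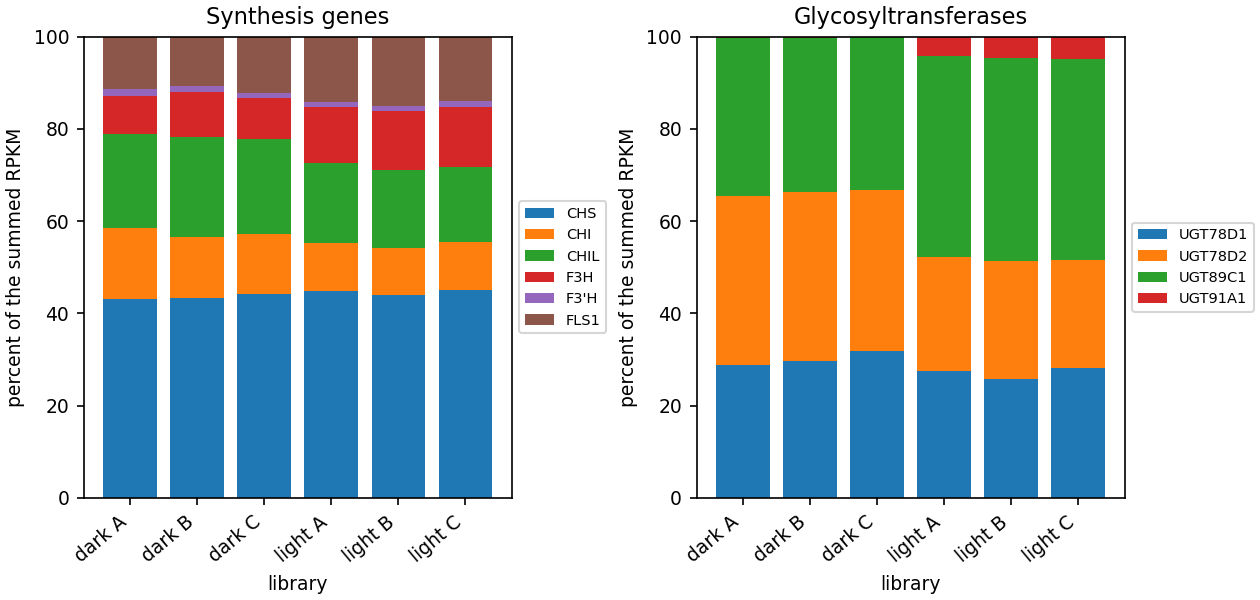
Share of each gene in the summed RPKM of the 6 synthesis genes (left) and of the 4 glycosyltransferase genes (right) in each library. The synthesis bars keep CHS at 43.5% in the dark and 44.7% in the light, while among glycosyltransferases UGT89C1 goes from 33.6% to 43.7% and UGT78D2 from 36.1% to 24.6%.

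The make-up of the glycosyltransferase transcripts shifted between the groups. UGT89C1 went from 33.6 ± 0.577% of their summed RPKM in the dark to 43.7 ± 0.262% in the light. UGT78D2 went from 36.1 ± 0.999% to 24.6 ± 1.08%, and UGT91A1 from 0.192 ± 0.0929% to 4.53 ± 0.338%. UGT78D1 went from 30.1 ± 1.57% to 27.2 ± 1.17%. In each case the light libraries lay outside the dark range. Shares add up to the whole, so they are not independent of one another. Among synthesis transcripts CHS kept a like share, 43.5 ± 0.678% and 44.7 ± 0.617%, while F3H went from 8.99 ± 0.743% to 12.7 ± 0.467% and CHI from 13.8 ± 1.35% to 10.3 ± 0.11%. CHIL went from 20.9 ± 0.681% to 16.8 ± 0.538%, FLS1 from 11.4 ± 0.721% to 14.4 ± 0.556% and F3'H from 1.31 ± 0.164% to 1.10 ± 0.163%. The F3'H shares overlapped between the groups (1.43, 1.39 and 1.13% in the dark, 1.02, 0.988 and 1.28% in the light), as did those of CHS. The summed level of synthesis transcripts went from 107 ± 10.8 to 1251 ± 111 RPKM and that of glycosyltransferase transcripts from 54.1 ± 0.867 to 320.1 ± 37.6 RPKM.

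Ratios of levels within each library were compared for 11 pairs of genes, of which 9 pairs did not overlap between the groups, 7 being higher and 2 lower in light. How often pairs of other genes separate in this way was not computed, so whether the count is particular to this pathway is not known. With 3 libraries against 3 the smallest p of the exact two-sided permutation test is 0.10, or 0.122 after adjustment over the 11 ratios, so no ratio could pass a threshold of 0.05. Every value below for pairs without overlap has that p. The light ranges are described against the dark ones.

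Relative to genes of the anthocyanin branch, FLS1 was higher in every light library. FLS1 competes for dihydroflavonols with DFR, dihydroflavonol reductase. The ratio FLS1/DFR was 3.43, 6.53 and 5.30 in the dark and 27.1, 26.1 and 29.8 in the light. LDOX, anthocyanidin synthase, is the next enzyme of the anthocyanin branch. The ratio FLS1/LDOX was 3.48, 5.44 and 4.06 in the dark and 21.8, 23.1 and 18.7 in the light. DFR and LDOX rose too, by 1.33 ± 0.19 and 1.52 ± 0.19, but from only 3.49 and 3.70 CPM (edgeR adjusted p = 2.38e-05 and 6.16e-06).

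Within synthesis the ratios moved less. CHS/CHI was 2.80, 3.26 and 3.45 in the dark and 4.37, 4.32 and 4.34 in the light, so the light libraries were nearly equal and all higher. F3H/CHI was 0.538, 0.736 and 0.697 in the dark and 1.18, 1.27 and 1.25 in the light. F3'H/F3H fell outside the dark range in the other direction, at 0.173, 0.142 and 0.126 in the dark and 0.0839, 0.0763 and 0.0991 in the light. Transcripts of the enzyme that leads to quercetin were thus scarcer relative to F3H in light, with reads of F3H not separable from those of AT3G51238. On the log2 scale F3'H rose by 3.29 ± 0.18, F3H by 4.04 ± 0.10 and CHI by 3.12 ± 0.09. CHIL/CHI (1.52 ± 0.169 and 1.64 ± 0.0635, exact permutation p = 0.4) and FLS1/F3H (1.28 ± 0.159 and 1.14 ± 0.0515, exact permutation p = 0.3) overlapped between the groups.

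Among the sugar-attaching enzymes the ratio UGT78D1/UGT78D2, rhamnose over glucose on the central ring, was 0.786, 0.809 and 0.912 in the dark and 1.12, 1.01 and 1.20 in the light. UGT89C1/UGT78D1, rhamnose on the A ring over rhamnose on the central ring, was 1.19, 1.13 and 1.04 in the dark and 1.58, 1.70 and 1.55 in the light. UGT91A1/UGT89C1 was 0.00569 ± 0.00268 in the dark and 0.104 ± 0.00781 in the light. All 3 ratios were higher in every light library. UGT78D2/FLS1 was lower, at 1.63 ± 0.288 in the dark and 0.435 ± 0.0089 in the light.

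**Figure D4:**
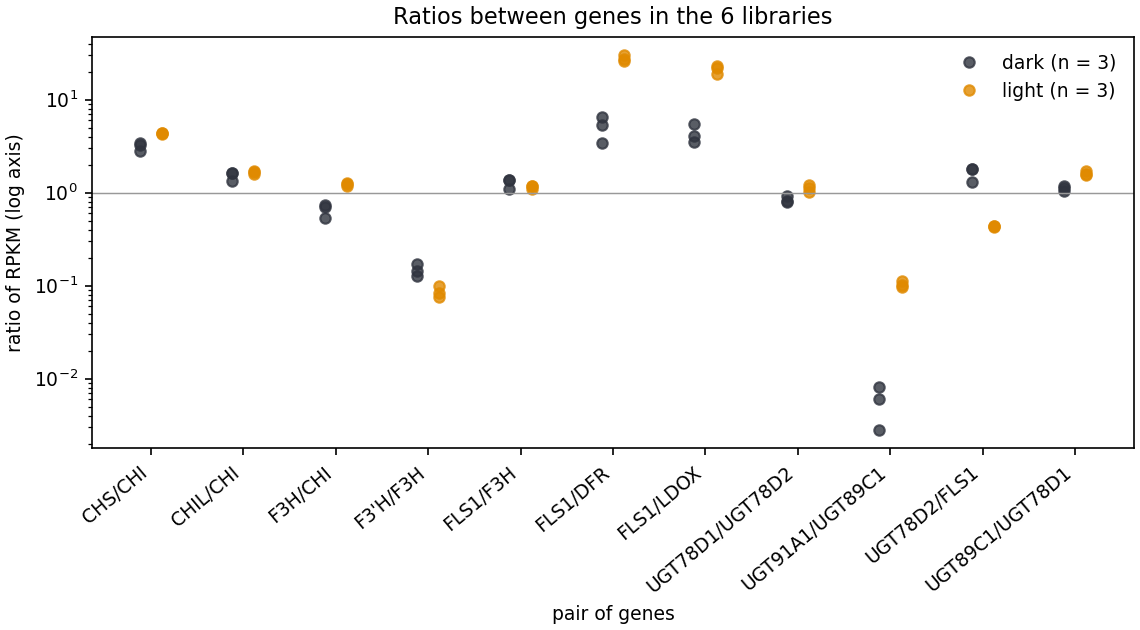
Ratio of RPKM between 2 genes (log axis) in the 3 dark and 3 light libraries for each of the 11 pairs. FLS1/DFR, FLS1/LDOX and UGT91A1/UGT89C1 show the widest gaps between the groups, and CHIL/CHI and FLS1/F3H overlap.

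Intron reads are a further readout of the same genes, counted in rows apart from exons. UGT89C1 and UGT91A1 have no intron in the deposited intron counts, and the other 8 genes have 17. These held 58 reads in the dark libraries together and 331 in the light ones. Summed over its introns, CHI had 3, 6 and 2 dark and 24, 34 and 10 light reads, CHIL 3, 1 and 7 dark and 35, 27 and 25 light reads, and FLS1 2, 1 and 4 dark and 18, 33 and 21 light reads. The intron of UGT78D1 had 8, 5 and 2 dark and 22, 16 and 14 light reads, and that of UGT78D2 had 2, 6 and 3 dark and 8, 9 and 6 light reads. F3H, F3'H and CHS had 0 or 1 intron read in each dark library. An intron passed the read minimum only through its light libraries, so no test of intron level against the library is given.

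Set against the count of their own gene, no tested exon, part, intron or junction of the 8 genes that have such rows was called. Intron reads were 0.771 ± 0.0826% of the gene counts of the 8 genes in the dark and 0.542 ± 0.0686% in the light, beside 1.99% and 1.86% for all introns. Relative to its gene, 0 of the 3 introns tested were called by edgeR, 0 had an unadjusted p under 0.05 and DESeq2 called 0, while edgeR called 6.02% of all introns tested. Of 27 exon rows tested, edgeR called 0, DESeq2 called 0 and 1 had an unadjusted p under 0.05, beside 0.0988% of all exon rows called. For alternatively spliced parts, edgeR called 0 of 2 tested, with 0 at an unadjusted p under 0.05 and 0 by DESeq2, beside 1.19% of all parts. For junctions, edgeR called 0 of 15 tested, with 0 at an unadjusted p under 0.05 and 0 by DESeq2, beside 0.169% of all junctions. These tests are limited by depth in the dark, where the 8 genes together had 2420, 2314 and 2832 counts, so smaller differences in splicing were not detectable. The 3 introns and some of the other rows tested passed the read minimum only through their light libraries. No conclusion on unchanged usage is drawn from those rows.

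The exon row with an unadjusted p under 0.05 lies at one end of FLS1 (chromosome 5, 2805399 to 2805447). It held 0 reads in each dark library and 18, 24 and 19 in the light libraries. In the dark that is 0 of 689 gene counts, and in the light it was 0.738% of 8267. The row passed the read minimum only through its light libraries. At the light share 5.08 dark reads would be expected. Its change relative to the gene had an adjusted p of 0.671 in edgeR (0.00484 before adjustment), so it was not called. The row was named after its values were seen.

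CHIL has an alternative splice donor in the annotation. The junction of its longer form took 10, 6.25 and 7.14% of the reads of the 2 donors in the dark and 4.08, 5.88 and 8.70% in the light, from 14 to 20 dark and 115 to 196 light reads a library. The groups overlapped. F3H and FLS1 each hold an annotated retained intron, but no junction in the deposited counts joins its borders, so no inclusion level is given for them.

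UGT78D2 stands in a row of related genes on chromosome 5, and a splice junction joined it to one of them. Junction reads linked the first exon of UGT78D3 (AT5G17030) at 5604084 to the second exon of UGT78D2 at 5608891. There were 10, 11 and 9 such reads in the dark and 28, 32 and 19 in the light, or 27.5 ± 1.75% of junction reads into that UGT78D2 exon in the dark and 24.7 ± 0.437% in the light. The gene counts of UGT78D3 were 10, 13 and 9 in the dark and 31, 34 and 20 in the light, so these junction reads equal 30 of its 32 dark and 79 of its 85 light counts. Its second exon held 2 reads in all 6 libraries, and 0 junction rows of its own were listed. UGT78D3 was called higher (1.67 ± 0.28, edgeR adjusted p = 0.000123), but nearly all of its counts can be these junction reads. It also passed the filter on low counts only through its light libraries. The 2 genes are close relatives, and how the authors placed reads that match both is not given in the sources used here.

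Most loci next to the 10 genes changed by less than 2-fold. Of 17 neighbours that share no bases with them, 12 were tested, with 6 higher, 2 lower and 4 not called. Their median log2 change was 0.26. UGT78D4 (AT5G17040), 817 bases from UGT78D2, had the largest change of these, a rise of 3.12 ± 0.24 from 0.856 to 7.48 CPM (edgeR adjusted p = 2.7e-08). It passed the filter on low counts only through its light libraries, with 13, 11 and 8 dark counts. The other 11 tested lay between -0.62 and 0.77. For all genes tested, 28.9% were called higher and 27.4% lower.

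**Figure D5:**
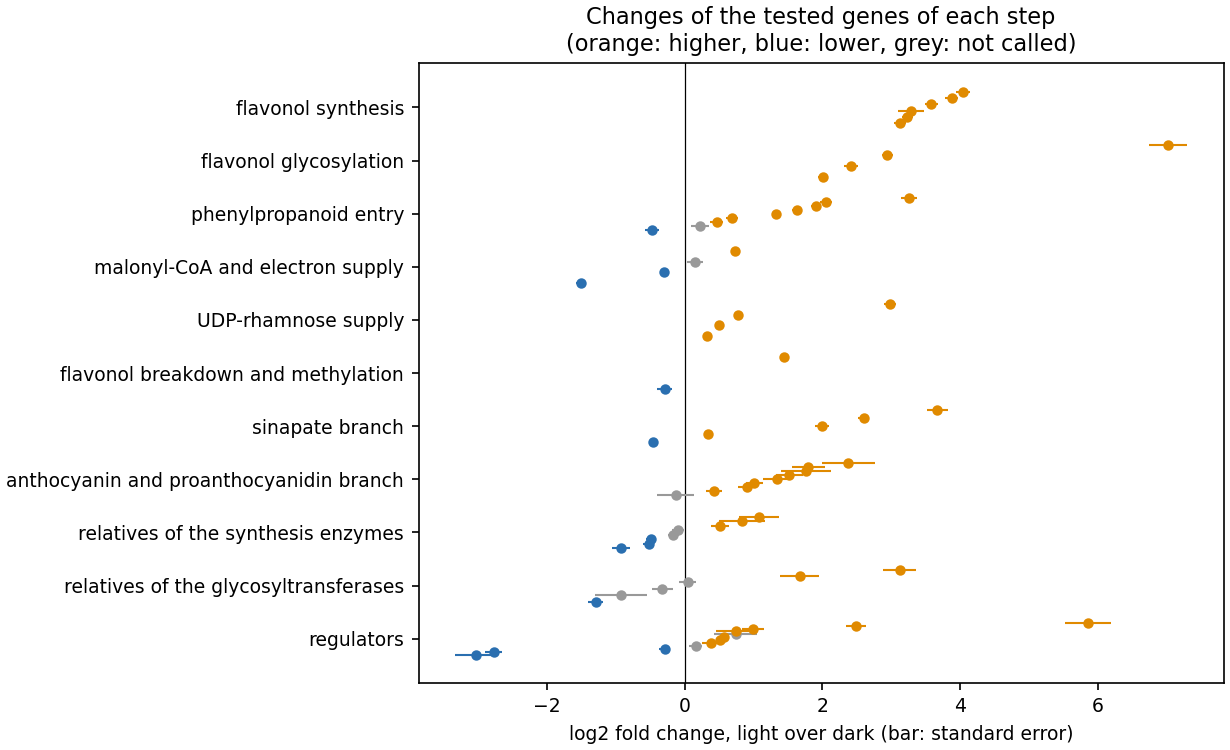
Log2 fold change of light over dark with its standard error for each tested gene of flavonol synthesis and glycosylation and of 9 related lists, orange for higher, blue for lower and grey for not called. The top 2 rows hold 10 genes at 2.00 or more, while supply, relative and regulator lists reach from -3.03 to 5.86.

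Upstream, the phenylpropanoid entry genes rose in 7 of 9 cases, with a median log2 change of 1.33 against -0.0031 over all genes tested. Of the latter, 28.9% were called higher and 27.4% lower. 4CL3, the coumarate CoA ligase assigned to flavonoids, rose by 3.26 ± 0.12 from 8.30 to 80.3 CPM. 4CL1, the ligase known mainly from lignin, rose by 1.90 ± 0.06, C4H, the cinnamate hydroxylase, by 1.63 ± 0.06, and PAL1, the phenylalanine ammonia-lyase, by 2.05 ± 0.08. PAL3, a minor lyase gene, was the 1 lower gene, at -0.48 ± 0.10 (edgeR adjusted p = 0.000834), and 4CL5 was not called at 0.23 ± 0.13 (adjusted p = 0.153).

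Malonyl-CoA and electron supply did not move one way. ACC1, the acetyl-CoA carboxylase that makes malonyl-CoA in the cytosol, rose by 0.73 ± 0.07, and its copy ACC2 was at 0.14 ± 0.11 (edgeR adjusted p = 0.298). ATR1 and ATR2 pass electrons to cytochromes P450 such as F3'H and C4H. Both were lower, ATR1 at -1.51 ± 0.07 (from 251 to 88.3 CPM) and ATR2 at -0.29 ± 0.07, while their partner F3'H was higher.

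UDP-rhamnose is the sugar donor of UGT78D1 and UGT89C1, and all 4 genes of its supply rose (28.9% of all genes tested were called higher). RHM1, a UDP-rhamnose synthase, measured 70.0, 81.8 and 78.6 CPM in the dark and 595, 542 and 690 CPM in the light. Its rise of 2.99 ± 0.09 (edgeR adjusted p = 7.79e-13) was of the size of that of UGT89C1. UER1 rose by 0.77 ± 0.06, RHM2 by 0.50 ± 0.07 and RHM3 by 0.33 ± 0.07.

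Close relatives of the enzymes went both ways, as did all genes tested (28.9% called higher and 27.4% lower). Of 12 relatives of the synthesis enzymes, 8 were tested, with 3 higher, 3 lower and a median of -0.13 (2 higher and 5 lower when scaled by library totals only, where FAP1 and FAP3 were also lower). FLS5, a relative of FLS1, went from 186 to 129 CPM (-0.53 ± 0.07), LAP6, a chalcone synthase relative of pollen walls, changed by -0.93 ± 0.13 and AT4G00040 by -0.49 ± 0.08. FLS3 was higher at 0.51 ± 0.13, FLS4 at 1.07 ± 0.29 and FAP2, a fatty acid binding relative of the isomerase, at 0.83 ± 0.33 (edgeR adjusted p = 0.0431). FAP1 at -0.17 ± 0.08 and FAP3 at -0.10 ± 0.09 were not called. Among 7 relatives of the glycosyltransferases, 2 of 6 tested were higher, the UGT78D2 neighbours UGT78D3 and UGT78D4, and 1 was lower, UGT89A2 at -1.29 ± 0.11 (3 lower when scaled by library totals only, UGT89B1 and UGT91C1 included). UGT78D3 and UGT78D4 passed the filter on low counts only through their light libraries, and UGT91C1 only through its dark ones. UGT89B1 (-0.33 ± 0.15), UGT91C1 (-0.93 ± 0.38) and UGT73C6 (0.04 ± 0.12), a flavonol glucosyltransferase in Arabidopsis, were not called.

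In the anthocyanin and proanthocyanidin branch 8 of 9 tested genes rose, with a median of 1.33 (28.9% of all genes tested were called higher). Beside DFR and LDOX they included 3AT1, an acyltransferase (1.01 ± 0.13), and GSTF12, a glutathione transferase needed for anthocyanin to reach the vacuole (1.79 ± 0.24). TT12, a vacuolar transporter of the seed coat, was not called at -0.13 ± 0.27.

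Regulators went both ways, 7 higher and 3 lower of 12 tested, with a median of 0.54 (5 higher by DESeq2 or when scaled by library totals only). Among all genes tested, 28.9% were called higher and 27.4% lower. MYB12, an activator of flavonol genes, measured 2.52, 2.02 and 2.24 CPM in the dark and 13.2, 12.7 and 12.3 CPM in the light (2.49 ± 0.15, edgeR adjusted p = 1.58e-09). Its relative MYB111 was at 0.74 ± 0.29 (adjusted p = 0.0419), a call lost in 8 of 13 alternatives. PAP1, an activator of anthocyanin genes, rose by 5.86 ± 0.34, from 0.134 to 8.48 CPM. It too passed the filter on low counts only through its light libraries. Its raw dark counts were 1, 2 and 2, so its ±, like that of UGT91A1, understates the counting error. MYBL2, a repressor of the anthocyanin branch, changed by -3.03 ± 0.30. It passed the filter on low counts only through its dark libraries. KFB-CHS, an F-box protein that marks chalcone synthase for breakdown, measured 136, 158 and 123 CPM in the dark and 25.7, 17.7 and 17.3 CPM in the light. Its log2 change was -2.77 ± 0.12 (adjusted p = 6.53e-11), so it fell while CHS rose. The repressors MYB4 and MYB7 were higher instead, at 0.57 ± 0.08 and 0.38 ± 0.13 (edgeR adjusted p = 2.34e-05 and 0.0231). The call of MYB7 was lost in 7 of 13 alternatives. HYH (0.52 ± 0.07) and EGL3 (0.99 ± 0.16) were higher too. TTG1, a partner of the MYB factors, was slightly lower at -0.29 ± 0.08, and HY5 (0.16 ± 0.09, adjusted p = 0.165) and GL3 (0.74 ± 0.31, adjusted p = 0.0569) were not called.

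Using the distance between log2 CPM profiles centred on each gene's mean over the 6 libraries, the 5 nearest to the mean profile of the 10 were taken from 13729 genes that reach 10 CPM in one of the groups. They were MIPS2, an inositol phosphate synthase gene (distance 0.154), AT3G28270 (0.171), RXW8 (0.218), AT3G09440 (0.228) and 4CL3 (0.263). Their log2 changes lay between 3.20 and 3.43. Of the 10 genes themselves, CHIL lay closest to the mean profile, at 0.230, and UGT91A1 farthest, at 2.22.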

How the data were processed

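The authors deposited raw counts per gene, exon, alternatively spliced part, intron and splice junction, with 1 column per library. The submitters' processing notes name TopHat2 2.0.9, the genome build TAIR10 and R 3.1. How reads were counted, and whether by strand, is not given in the sources used here. The 10 members, the lists and the tests were chosen with earlier results of these data known.

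Genes were tested on all 6 libraries with edgeR 4.0.16 (R 4.3.3, limma 3.58.1): filterByExpr, TMM, quasi-likelihood F test, Benjamini-Hochberg adjustment over all genes tested, called under 0.05. CPM use TMM-scaled totals and RPKM divide them by the deposited exonic length. The standard error of a log2 change is its size divided by the square root of the F statistic. This approximation can be too narrow at low counts. Usage of exons, parts, introns and junctions was tested with the log of the gene count plus 0.5 as offset. Junctions marked as hitting several genes were left out. Ratios were tested by exact permutation. Profile distances used log2 of CPM plus 0.5. The scripts were tested on simulated data. DESeq2 1.42.0 was an alternative, with others described at the end. The R package data.table (1.17.8) read the files. Within groups, libraries differed by more than sampling noise (chi-square per degree of freedom at least 2.61). Symbols came from RefSeq's gene list, which held all 10 members.

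Named genes are the 10 members, up to 4 called genes of each list by adjusted p and those not called where 5 or fewer. PAL3, FLS4, FAP2, MYB111, TTG1, MYB4, MYB7, HYH, EGL3, UGT79B1, 5MAT and the overlapping and neighbouring loci were named after their values were seen.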

Additional observations from a re-analysis of the deposited data

How the results depend on the processing

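All 10 genes kept direction and call in each of 13 alternatives (DESeq2 factors or library totals as scaling, the DESeq2 test, no filter, no ribosomal RNA rows, a 2-fold minimum change, each library left out, and the 2 libraries richest in ribosomal RNA left out), with a largest adjusted p of 4.35e-08. UGT78D2 ranged from 1.86 to 2.04 and UGT91A1 from 6.68 to 7.39. With library totals only, the median of all genes was -0.14 in place of -0.0031. Counts of called exons, parts, introns and junctions relative to the gene were 0 in every alternative run. The 66 ratio changes computed with a library left out moved by less than the spread between libraries; gene length cancels in these changes, but the ratio levels depend on it. Exon rows add up to the deposited length of the 8 genes that have them, so using them gives the same levels. Whole gene length, an alternative chosen after seeing the data, kept 5 genes at their place by RPKM in the dark and 6 in the light. Of the listed genes, FAP2, MYB111 and BGLU15 each lost their call in 8 alternatives, MYB7 in 7, UGT75C1 in 2, and FLS3 without the 2 libraries richest in ribosomal RNA (edgeR adjusted p = 0.061). Among the markers EXPA7 lost its call in 8 and SHR and YAB3 in 7. Calls of lower were gained by FAP1, UGT89B1, TMM and APL in 2 alternatives each and by ATML1 in 5, and GL3 was called higher in 2. By its construction, the 2-fold minimum ends the calls of listed genes that changed less. It also ended those of DFR (log2 change 1.33), UGT78D3 (1.67), 5MAT (1.77), FLS4 (1.07) and 3AT1 (1.01), which rose more than 2-fold. No paired analysis was possible because the columns carry letters that match no replicate number in the labels.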

Other observations

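Sinapate esters share the phenylpropanoid entry steps with flavonols and also absorb ultraviolet light. Of 5 genes of this branch 4 were higher in light and 1 was lower, with a median log2 change of 1.99. The shares over all genes tested were 28.9% higher and 27.4% lower. FAH1, the ferulate hydroxylase, rose by 2.60 ± 0.08 from 28.1 to 171 CPM. The sinapate glucosyltransferase genes UGT84A1 and UGT84A2 rose by 3.67 ± 0.15 and 1.99 ± 0.10. SNG1, which makes sinapoylmalate, was lower at -0.46 ± 0.06 (edgeR adjusted p = 9.12e-06). OMT1, a methyltransferase of phenylpropanoids and quercetin, rose by 1.44 ± 0.06, and BGLU15, a glucosidase that removes glucose from flavonol glycosides, was at -0.29 ± 0.11 (edgeR adjusted p = 0.0376).

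Beside the 4 members, 49 genes whose symbol begins with UGT were tested (UGT78D4, listed by locus only and described above, is not among them), of which edgeR called 18 higher and 12 lower, with a median log2 change of -0.09. Of the 49 genes, 2 rose more than UGT78D2, 1 (UGT84A1) rose more than UGT89C1 and 0 rose more than UGT91A1. UGT78D4, at 3.12, also rose more than UGT89C1. Over all genes tested, edgeR called 28.9% higher and 27.4% lower.

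An unannotated CHIL junction that skips bases 1563728 to 1563845 of chromosome 5 had 10 reads in light A and 0 in the other 5 libraries. It was named after its values were seen.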
